A study of Mus musculus with 20 samples.

Results

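The MYC-MAX-MXD network is a family of transcription factors that mostly pair through MAX and compete for the same DNA sites. The genes described here are the 9 rows whose symbol is Myc, Max, Mxd1, Mxd3, Mxd4, Mxi1, Mnt, Mga or Mlx, out of 78409 genes in the table. They were picked by name, with results of these libraries already known, and which values had led to the choice was not recorded. Their levels and fold changes are therefore given as a description, without p-values.

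MYC needs MAX to bind DNA and, with MAX, recruits coactivators to genes for growth, metabolism and ribosome production. The MXD proteins and MNT also pair with MAX at the same sites but bring in SIN3 and histone deacetylases, so that the balance between MYC and its antagonists tracks the change from dividing to resting or differentiated cells. In macrophages Myc transcription answers to growth factors such as colony stimulating factor, and Mxd1 is known as a gene of myeloid differentiation.

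The macrophages were all wild-type cells grown from bone marrow of female C57BL/6J mice, and only the fluid added to them differed. The fluid was bronchoalveolar lavage fluid (BALF) from mice with airway inflammation induced by ovalbumin (OVA). Donors were RNY1+/+ or RNY1-/-, the second carrying a CRISPR deletion of the Y RNA gene RNY1. Size exclusion chromatography split BALF into an extracellular vesicle fraction (EVFx) and a protein-rich fraction (ProteinFx).

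The 5 groups of 4 libraries were PBS, RNY1+/+ EVFx, RNY1-/- EVFx, RNY1+/+ ProteinFx and RNY1-/- ProteinFx. Both EVFx were added at 35000000 particles/µL and both ProteinFx at 0.75 µg/µL of protein, after 5 days at 4°C, on day 7 of culture in medium without serum. The fibroblast-conditioned medium in which the cells had grown was withdrawn the day before treatment. The study's mice were 7 to 16 weeks old. The length of treatment was not given in the sources used here. Each fraction was itself pooled from several column fractions. Whether libraries of a group came from separate BALF pools, bone marrow donors or only wells is not in the labels. The spread between libraries, and every p-value below, may thus be technical. The labels put all 20 libraries in 1 batch.

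Total counts ranged from 2510005 to 8277366 a library. The 10 macrophage markers were detected in every group, with summed levels of 8778 to 14330 CPM (a library's counts scaled to the same total). Dendritic cell, B cell and T cell marker sums were at most 9.22 CPM in every library, while those of lung epithelium reached 36 CPM and those of fibroblasts 48.4 CPM, both in PBS libraries. Libraries did not stand equally close within groups. The squared difference between replicates, relative to that of counting alone, was 2.57 for RNY1-/- ProteinFx libraries 3 and 4, and 3.5 for libraries 1 and 2. A library of the first pair set beside a library of the second gave 13.3 to 15.7. It was 16.8 to 34.8 between PBS replicate 3 and the other PBS libraries, against 2.3 to 10.4 among those. No pair was as close as a library deposited again would be. Called results that changed without these libraries are given with and without them.

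The DNA site shared by the network is the E-box CACGTG, which reads the same on both strands. RefSeq promoters of GRCm38.p6, from 250 bases before to 50 after the start, were found for 8 of the 9 genes and not for Myc. The E-box was in 4 of these 8, against 8.093% of 27025 genes with a promoter in the same table. The windows below show where a network protein's own gene carries the network's site, with the E-box in capitals, 5′ to 3′ on the gene's strand.
Max, chr12:76962234-76962263, minus strand: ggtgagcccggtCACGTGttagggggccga
Mxd4, chr5:34187912-34187941, minus strand: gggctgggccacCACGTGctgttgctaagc
Mnt, chr11:74830789-74830818, plus strand: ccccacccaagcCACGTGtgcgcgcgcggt
Mlx, chr11:101087238-101087267, plus strand: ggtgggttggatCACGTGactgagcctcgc
The first base of the E-box lay 3 bases before the start of Max, 40 before that of Mlx, 123 before that of Mnt and 219 before that of Mxd4. Mxd1, Mxd3, Mxi1 and Mga had no CACGTG in this window. These are matches of letters, and binding was not measured.

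Myc, the network's activator, was present in every library. In PBS it stood at 28.3, 26.4, 46.7 and 23.7 CPM in replicates 1 to 4. It stood at 28.7, 36.8, 34.0 and 29.5 CPM with RNY1+/+ EVFx and at 35.7, 37.7, 56.2 and 39.9 CPM with RNY1-/- EVFx. With ProteinFx it stood at 15.9, 23.6, 21.6 and 18.9 CPM from RNY1+/+ donors and 14, 12.4, 23.1 and 17.1 CPM from RNY1-/- donors. Every ProteinFx library lay under every PBS and EVFx library in CPM, at 23.6 against 23.7 CPM at the closest. With CPM divided by the TMM factors PBS replicate 4 was at 21.9 and RNY1+/+ ProteinFx replicate 2 at 23.6, so that both ProteinFx groups overlapped PBS, while those factors left both under every EVFx library. PBS replicate 3 and RNY1-/- EVFx replicate 3 were well above the rest of their groups, and replicate 3 had the lowest total count of both groups.

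The group means of Myc ran from RNY1-/- EVFx, with 42.4 ± 9.35 CPM (SD, n = 4), through RNY1+/+ EVFx with 32.2 ± 3.83 and PBS with 31.3 ± 10.4, to RNY1+/+ ProteinFx with 20.0 ± 3.34 and RNY1-/- ProteinFx with 16.7 ± 4.71. Neighbours in this order overlapped in CPM, except for the step from PBS to RNY1+/+ ProteinFx. Relative to PBS, the fitted log2 fold change of Myc was 0.23 (SE 0.199) with RNY1+/+ EVFx and 0.68 (SE 0.214) with RNY1-/- EVFx. It was -0.47 (SE 0.213) with RNY1+/+ ProteinFx and -0.86 (SE 0.262) with RNY1-/- ProteinFx. None of these passed the limits of a call, which were an adjusted p under 0.05 and a log2 fold change beyond 1 in either direction. With trends of gene length and GC content removed, the RNY1+/+ ProteinFx value was -0.25. Without PBS replicate 3 the 4 values of Myc were 0.48, 0.93, -0.23 and -0.64, and the first was 0.12 without PBS replicate 4. Without RNY1-/- ProteinFx replicate 3 the last was -1.05 and met the limits. Without RNY1-/- ProteinFx replicates 3 and 4 the last value was -1.21 and met the limits, and without replicates 1 and 2 it was -0.51.

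Max, the shared partner of every other member but MLX, was expressed in all groups. PBS libraries held 59.8, 61.8, 39.3 and 41.3 CPM. RNY1+/+ EVFx libraries held 55.8, 57.2, 40.7 and 52.2 CPM, and RNY1-/- EVFx libraries 51.9, 53.3, 37.9 and 37.6 CPM. The ProteinFx levels were higher, 69.1 to 70.4 CPM from RNY1+/+ donors and 61.1 to 77.0 CPM from RNY1-/- donors. The 4 RNY1+/+ ProteinFx libraries averaged 69.7 ± 0.585 CPM and did not overlap PBS. The log2 fold change of Max against PBS was 0.63 (SE 0.153) with RNY1+/+ ProteinFx and 0.48 (SE 0.168) with RNY1-/- ProteinFx, under the limit for a call. In 14 of 20 libraries the count of Max was not a whole number, since reads that map to several places were shared out, and its level is uncertain to that extent.

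**Figure D1:**
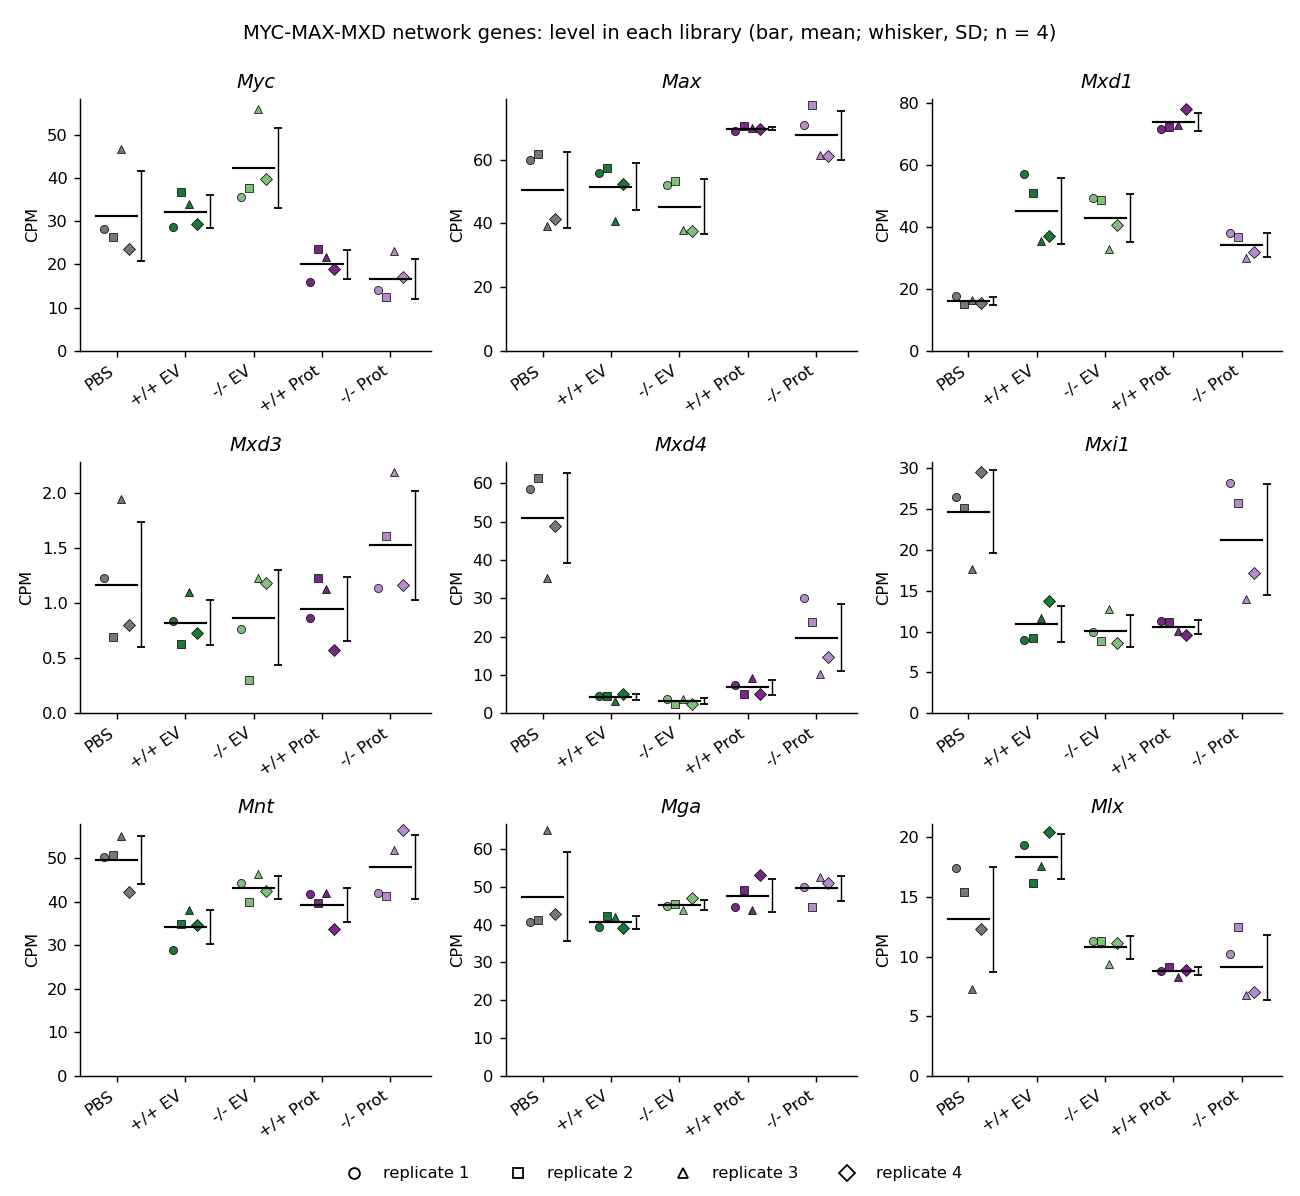
Level in CPM (vertical axis, from 0, scale set per gene) of the 9 network genes in each of 20 libraries, by treatment (horizontal axis, donor genotype and fraction). Points are libraries with a symbol for the replicate number, bars are means and whiskers the SD of 4. Mxd1 is lowest and Mxd4 highest in PBS, and the RNY1-/- ProteinFx libraries lie between PBS and RNY1+/+ ProteinFx for both.

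Among the antagonists, Mxd1 and Mxd4 moved in opposite directions with every fraction. Mxd1 (MAD1), a MAX partner that recruits SIN3, was at 17.8, 15, 16.2 and 15.5 CPM in PBS. It was at 57.3, 51.1, 35.4 and 37.0 CPM with RNY1+/+ EVFx and at 49.5, 48.8, 33.0 and 40.7 CPM with RNY1-/- EVFx. With RNY1+/+ ProteinFx it reached 71.8, 72.5, 73.1 and 78.3 CPM. With RNY1-/- ProteinFx it was at 38.1, 36.6, 29.9 and 31.9 CPM. No treated library overlapped PBS, and the RNY1+/+ ProteinFx libraries lay above all others.

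Against PBS, Mxd1 was 3.18-fold higher with RNY1+/+ EVFx (log2 fold change 1.67, SE 0.173) and 3.17-fold higher with RNY1-/- EVFx (1.66, SE 0.149). It was 5.16-fold higher with RNY1+/+ ProteinFx (2.37, SE 0.115) and 2.22-fold higher with RNY1-/- ProteinFx (1.15, SE 0.129). All 4 met the limits of a call, in the main fits and in each of the alternatives tried. The 4 comparisons share the PBS libraries, so their values are not independent of each other.

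Mxd4 (MAD4), a MAX partner of the same kind, was at 58.4, 61.3, 35.2 and 48.8 CPM in PBS. With RNY1+/+ EVFx it was at 4.4, 4.4, 3.2 and 5.0 CPM, with RNY1-/- EVFx at 3.8, 2.5, 3.7 and 2.5 CPM, and with RNY1+/+ ProteinFx at 7.5, 5.1, 9.3 and 5.0 CPM. With RNY1-/- ProteinFx it was at 30.0, 23.8, 10.4 and 14.8 CPM. Replicates 1 and 2 of that group were above replicates 3 and 4, and all 4 lay between PBS and RNY1+/+ ProteinFx without overlap. The lowest group, RNY1-/- EVFx, still rested on 15 to 29 counts a library.

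Mxd4 was 10.5-fold lower with RNY1+/+ EVFx (log2 fold change -3.39, SE 0.204) and 13.8-fold lower with RNY1-/- EVFx (-3.78, SE 0.225), which were the largest changes of any member. It was 6.8-fold lower with RNY1+/+ ProteinFx (-2.77, SE 0.232) and 2.42-fold lower with RNY1-/- ProteinFx (-1.27, SE 0.278). The last value depended on the pairs of libraries. It was -1.87 without replicates 1 and 2, and -0.90, no longer past the limit, without replicates 3 and 4.

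Mxi1 (MXI1 or MAD2), the third SIN3-recruiting antagonist, followed Mxd4 with smaller changes. PBS libraries had 26.4, 25.2, 17.6 and 29.5 CPM, and RNY1-/- ProteinFx libraries 28.1, 25.7, 13.9 and 17.1 CPM. The other 3 groups spanned 8.6 to 13.8 CPM and overlapped, with means of 10.9 ± 2.25 CPM for RNY1+/+ EVFx, 10.5 ± 0.851 CPM for RNY1+/+ ProteinFx and 10 ± 1.95 CPM for RNY1-/- EVFx. The log2 fold change against PBS was -1.01 (SE 0.193), -1.08 (SE 0.188) and -1.07 (SE 0.176) with RNY1+/+ EVFx, RNY1-/- EVFx and RNY1+/+ ProteinFx, just past the limit, and -0.14 (SE 0.225) with RNY1-/- ProteinFx. Each of the first 3 fell under the limit without PBS replicate 4, at -0.90, -0.96 and -0.98. The RNY1+/+ EVFx value also fell under it without PBS replicate 1 (-0.98), without RNY1+/+ EVFx replicate 1 (-0.92) or 2 (-0.93), and with filterByExpr alone (-0.99) or no filter on low counts (-0.94).

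Mxd3 (MAD3), best known from dividing cells in S phase, was near the detection limit. Its 5 group means were 0.823 to 1.53 CPM, and it was left out of every comparison by the filter on low counts. The remaining members are the larger or more distant proteins of the network. Mnt, the most widely expressed antagonist, had its highest mean in PBS, 49.6 ± 5.41 CPM, and its lowest with RNY1+/+ EVFx, 34.2 ± 3.92 CPM, and these did not overlap in CPM, though they did with TMM scaling (log2 fold change -0.36, SE 0.122). RNY1-/- EVFx, RNY1+/+ ProteinFx and RNY1-/- ProteinFx had 43.3 ± 2.72, 39.3 ± 3.92 and 48.0 ± 7.43 CPM and each group overlapped the next in the order of means. In the fits, log2 fold changes of Mnt against PBS in these groups were 0.04, -0.17 and 0.02. With length and GC trends removed they were 0.58, 0.36 and 0.55, and the value for RNY1+/+ EVFx was -0.29. The order with PBS highest thus held for CPM alone.

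Mga, a large protein that pairs with MAX and belongs to the repressive PRC1.6 complex, had group means of 40.7 to 49.6 CPM. Its fitted log2 fold changes against PBS were -0.04 to 0.19. PBS replicate 3, with 65.2 CPM, lay far from the other PBS libraries at 40.7, 41.2 and 42.7 CPM. Without it the fold changes against PBS were 0.14 to 0.38. With length and GC trends removed the direction turned, to -0.15, -0.16 and -0.17 with RNY1-/- EVFx, RNY1+/+ ProteinFx and RNY1-/- ProteinFx and to 0.03 with RNY1+/+ EVFx.

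Mlx, which pairs with the glucose-sensing Mondo proteins MLXIP and MLXIPL and with MXD proteins and MNT in place of MAX, was highest with RNY1+/+ EVFx. Its levels there were 19.4, 16.1, 17.6 and 20.4 CPM, against 17.4, 15.4, 7.3 and 12.3 CPM in PBS. RNY1-/- EVFx libraries had 11.3, 11.3, 9.4 and 11.1 CPM, and ProteinFx libraries had 8.3 to 9.1 CPM from RNY1+/+ donors and 6.8 to 12.4 CPM from RNY1-/- donors. The range of PBS, widened by the 7.3 CPM of replicate 3, overlapped every other group, and no comparison of Mlx met the limits of a call.

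**Figure D2:**
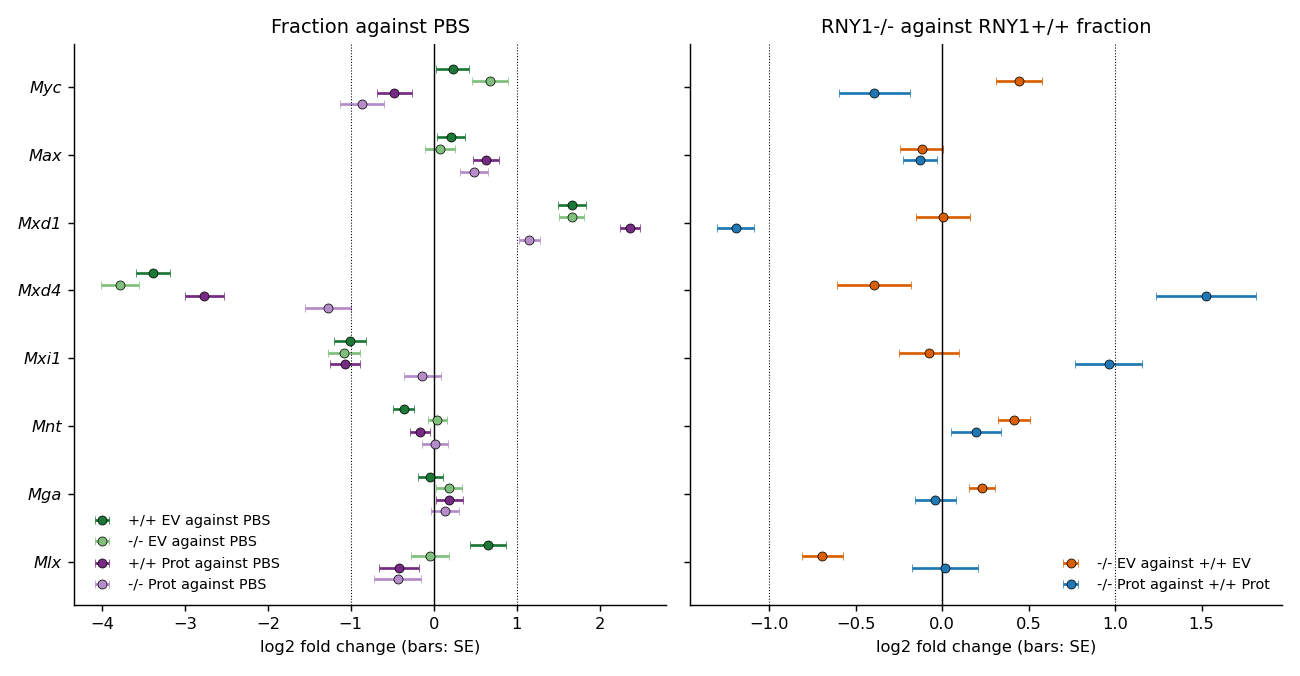
Fitted log2 fold change (horizontal axis, bars 1 SE) of the 8 network genes that passed the filter, for the 4 fractions against PBS (left) and RNY1-/- against RNY1+/+ within a fraction (right). Dotted lines mark the limits of -1 and 1. Mxd1 lies past 1 and Mxd4 past -1 with all 4 fractions, and in ProteinFx the genotypes differ by -1.19 for Mxd1 and 1.52 for Mxd4.

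In counts, 3 of the 8 members tested were called with RNY1+/+ EVFx (Mxd1, Mxd4 and Mxi1), where 16.4% of all genes tested were called. The same 3 genes were called with RNY1-/- EVFx, with 22.5% of all genes called, and with RNY1+/+ ProteinFx, with 21.3%. With RNY1-/- ProteinFx 2 members were called, Mxd1 and Mxd4, where 14.3% of all genes were. The CPM of a fraction and of PBS did not overlap for 4, 3, 6 and 3 of the 8 members in these comparisons, against 43.5%, 52.3%, 46.9% and 31% of all genes tested. By adjusted p alone, without the limit on fold change, 5, 4, 4 and 4 members passed, against 44.5%, 58.3%, 55.2% and 35.7% of all genes. Since the members were picked with such results known, nothing is read from these shares. EVFx and ProteinFx were given at doses that cannot be matched, so their levels stand side by side without a test between them. Only the effects of donor genotype are set against each other below.

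The genotype of the BALF donor was the next question, as the study asks what RNY1 adds to each fraction. In ProteinFx, Mxd1 was 2.29-fold lower with RNY1-/- than with RNY1+/+ fluid, at 34.1 ± 3.87 against 73.9 ± 2.94 CPM (log2 fold change -1.19, SE 0.107). Mxd4 was 2.88-fold higher, at 19.7 ± 8.85 against 6.72 ± 2.06 CPM (1.52, SE 0.288). Mxi1 was 1.95-fold higher, at 21.2 ± 6.79 against 10.5 ± 0.851 CPM (0.96, SE 0.194), just under the limit. The genotypes did not overlap for these 3 genes, and overlapped for the other 5 tested, against 14.3% of all genes without overlap. The 2 calls, Mxd1 and Mxd4, stand beside 1.82% of all genes called, and the 3 members that passed by adjusted p alone beside 5.57%. For Myc the log2 fold change was -0.39 (SE 0.205), and for Max, Mnt, Mga and Mlx it was -0.13 to 0.19. The value for Myc was -0.04 without RNY1-/- ProteinFx replicates 1 and 2 and -0.73 without replicates 3 and 4.

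These 3 differences were not equally firm across the RNY1-/- ProteinFx libraries. Without replicates 1 and 2, the log2 fold change of Mxd1 was -1.29, that of Mxd4 0.91 and that of Mxi1 0.55, and only Mxd1 kept its call. Without replicates 3 and 4 the values were -1.12, 1.87 and 1.22, all past the limit. Mxi1 also passed the limit when scaled by total counts alone (1.06), with length and GC trends removed (1.01), and without RNY1-/- ProteinFx replicate 3 (1.08) or 4 (1.04). Replicates 3 and 4 had total counts of 2510005 and 3855450, and replicates 1 and 2 of 5293171 and 7149366. The part of depth in this split was not tested.

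In EVFx no member was called between genotypes by edgeR or by DESeq2, where 2.35% of all genes tested were called by edgeR. Without the limit on fold change, 4 of the 8 passed an adjusted or an unadjusted p under 0.05, namely Myc, Mnt, Mga and Mlx, against 52.1% of all genes by adjusted p. Mlx was lower with RNY1-/- EVFx, at 10.8 ± 0.945 against 18.4 ± 1.89 CPM (log2 fold change -0.69, SE 0.12). Mnt was 0.42 higher on the log2 scale (SE 0.094) and Mga 0.23 higher (SE 0.073). CPM of these 3 did not overlap between genotypes, against 44.7% of all genes. Myc was 0.45 higher (SE 0.135), with overlap in CPM but not with TMM scaling, and 0.29 higher without RNY1-/- EVFx replicate 3. With length and GC trends removed, Mnt was 0.87 and Myc 0.73 higher and Mga turned to -0.18, so the direction for Mga depended on that choice. Mxd1 had a log2 fold change of 0.01 (SE 0.156), Mxd4 -0.39 (SE 0.213) and Mxi1 -0.07 (SE 0.174).

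The difference between the 2 genotype effects, ProteinFx minus EVFx, was fitted over the 16 treated libraries. Fraction and dose differ together here, so their parts in the difference cannot be told apart. It was -1.20 (SE 0.203) for Mxd1, 1.92 (SE 0.403) for Mxd4 and 1.04 (SE 0.269) for Mxi1, and these 3 of 8 members met the limits, where 7.79% of all genes did. By adjusted p alone 5 members passed, against 33% of all genes. For Myc it was -0.86 (SE 0.26) and for Mlx 0.72. Without RNY1-/- ProteinFx replicates 1 and 2 the values were -1.28, 1.31 and 0.63 for Mxd1, Mxd4 and Mxi1, and Mxi1 fell under the limit. Mxi1 also fell under it without any of 6 other libraries in turn, with values of 0.90 to 1. For Myc the value was -1.02 without RNY1-/- ProteinFx replicate 3 and -1.21 with length and GC trends removed, both past the limit, and -0.48 without replicates 1 and 2 of that group, where Mlx was at 0.32.

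Ratios within a library remove library size and show the balance of activator and antagonist transcripts, though counts at 3′ ends do not rank genes against each other. The ratio of Myc to Mxd1 was 1.94 ± 0.632 in PBS (SD, n = 4), from 1.53 to 2.87. It was 0.745 ± 0.191 with RNY1+/+ EVFx and 1.04 ± 0.453 with RNY1-/- EVFx. It was 0.271 ± 0.0478 with RNY1+/+ ProteinFx and 0.504 ± 0.199 with RNY1-/- ProteinFx. The RNY1+/+ ProteinFx ratios, 0.221 to 0.325, lay under all others, from 0.34 up. The RNY1-/- EVFx group reached 1.70 and overlapped PBS.

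The ratio of Myc to Max was 0.665 ± 0.354 in PBS, 0.639 ± 0.141 with RNY1+/+ EVFx and 0.985 ± 0.374 with RNY1-/- EVFx. With ProteinFx it was 0.287 ± 0.0456 from RNY1+/+ donors and 0.254 ± 0.0954 from RNY1-/- donors, under every PBS and EVFx library. The ratio of Mxd1 to Mxd4, added after the values were seen, was 0.332 ± 0.0918 in PBS. It was 10.8 ± 2.38 with RNY1+/+ EVFx, 14.3 ± 4.43 with RNY1-/- EVFx and 11.8 ± 3.68 with RNY1+/+ ProteinFx. With RNY1-/- ProteinFx it was 1.96 ± 0.719, from 1.27 to 2.88, between those 3 groups and PBS.

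**Figure D3:**
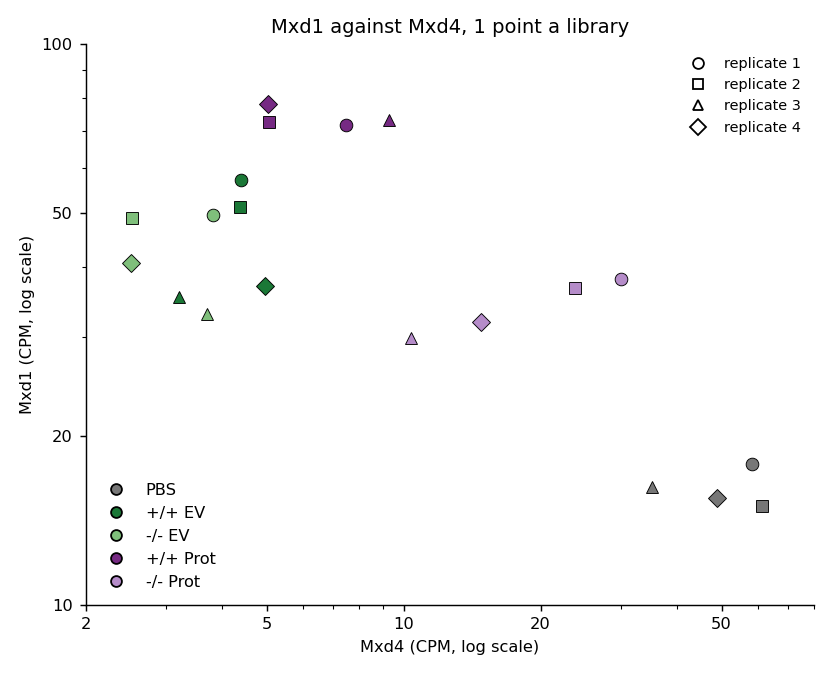
Mxd1 (vertical axis) against Mxd4 (horizontal axis) in each of 20 libraries, both in CPM on log scales, with colour for the treatment and symbol for the replicate number. PBS libraries sit at low Mxd1 and high Mxd4, EVFx and RNY1+/+ ProteinFx libraries at Mxd4 under 10, and the 4 RNY1-/- ProteinFx libraries between them.

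Outside the 9 genes, the other MYC and Mondo family genes were nearly silent except for Mlxip. Mycl had at most 3 counts in a library, and Mycn and Mlxipl 1 count each over all 20. Mlxip, the Mondo partner of MLX, had group means of 23.5 to 30.6 CPM and was called in no comparison by edgeR, with adjusted p-values of 0.0603 to 0.898 and an unadjusted p under 0.05 between the EVFx genotypes and for the difference of genotype effects alone. DESeq2 called it in none.

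Txnip and Arrdc4 are known targets of MLX and the Mondo proteins. Arrdc4, an arrestin that limits glucose uptake, rose with all 4 fractions. Its mean was 21.2 ± 1.46 CPM in PBS and 53.1 ± 4.59, 48.1 ± 3.03, 38.9 ± 6.32 and 54.5 ± 5.31 CPM with RNY1+/+ EVFx, RNY1-/- EVFx, RNY1+/+ ProteinFx and RNY1-/- ProteinFx. The log2 fold changes were 1.501, 1.42, 1.04 and 1.43 (edgeR adjusted p 1.18e-06, 1.51e-06, 8.82e-05 and 1.27e-05). The third fell under the limit on fold change in 4 of 15 alternatives, among them the one without PBS replicate 3 (0.999) and the one without RNY1+/+ ProteinFx replicate 3 (0.94).

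Txnip, the other arrestin of this kind, differed from Arrdc4. It was at 636.5 ± 35.3 CPM in PBS and lower with RNY1+/+ EVFx, at 336 ± 16.2 CPM (log2 fold change -0.75, SE 0.09, edgeR adjusted p = 5.07e-05), and RNY1-/- EVFx, at 331 ± 29.0 CPM (-0.71, SE 0.096, adjusted p = 0.000108). With RNY1+/+ ProteinFx it was at 471 ± 59.7 CPM (-0.27, adjusted p = 0.0588, and under 0.05 in 6 of 15 alternatives, among them those without PBS replicate 3 or RNY1+/+ ProteinFx replicate 3) and with RNY1-/- ProteinFx at 795 ± 153 CPM (0.38, adjusted p = 0.0476). The genotypes in ProteinFx differed by 0.67 (SE 0.135, adjusted p = 0.0116), short of the fold limit, and this p was 0.0575 without RNY1+/+ ProteinFx replicate 4. For RNY1-/- ProteinFx the adjusted p against PBS was over 0.05 without any of 7 libraries in turn.

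Among 12 coactivators of MYC, Kat2a, a histone acetyltransferase, was the single gene called between any groups, lower with RNY1-/- EVFx than with PBS (-1.596, SE 0.365, edgeR adjusted p = 0.00325) and than with RNY1+/+ EVFx (-1.54, SE 0.182, adjusted p = 0.000199), from a mean of 7.84 CPM in PBS. Its mean was 2.18 CPM with RNY1-/- EVFx and 6.78 with RNY1+/+ EVFx. Means were also low with RNY1+/+ and RNY1-/- ProteinFx, at 3.725 and 4.03 CPM, though not called against PBS.

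Of 12 genes for MYC protein turnover and partners, Pim1, a kinase that stabilises MYC, rose with every fraction. It went from 94.9 ± 9.77 CPM in PBS to 435 ± 41.8 with RNY1+/+ EVFx, 342 ± 49.1 with RNY1-/- EVFx, 219 ± 13.8 with RNY1+/+ ProteinFx and 188 ± 18.6 CPM with RNY1-/- ProteinFx. The log2 fold changes were 2.37, 2.09, 1.37 and 1.05 (edgeR adjusted p 6.43e-08, 4.42e-07, 1.61e-06 and 9.82e-05). The last was 0.98 without PBS replicate 3 and 0.99 with total counts. Bin1, a protein that binds and restrains MYC, fell with RNY1-/- EVFx (-1.43, SE 0.221, adjusted p = 0.000268), RNY1+/+ ProteinFx (-1.496, SE 0.227, adjusted p = 0.000233) and RNY1-/- ProteinFx (-1.14, SE 0.238, adjusted p = 0.00514), the last not past the limits without replicates 3 and 4 of that group (-0.96, adjusted p = 0.0662) or with length and GC trends removed (-0.80). With RNY1+/+ EVFx its mean was also lower, at 34.11 ± 4.835 CPM against 58.85 ± 18.59 in PBS, though not called.

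Zbtb17 (MIZ1), through which MYC represses genes, was lower with RNY1-/- ProteinFx, at 3.15 ± 0.789 CPM against 7.6 ± 2.09 in PBS (-1.19, adjusted p = 0.00725), but at an adjusted p of 0.062 without replicates 3 and 4, and at -0.73 with length and GC trends removed. With RNY1+/+ ProteinFx its mean was nearly as low, at 3.55 ± 0.291 CPM, though not called against PBS. It was not called between the ProteinFx genotypes.

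The 10 partners of MGA in PRC1.6 held 2 genes called lower with RNY1-/- EVFx and with RNY1+/+ ProteinFx, L3mbtl2 and Ring1, both under 10 CPM on average. Of all genes tested, 13.5% and 12.4% were called lower in these comparisons. Ring1 was also called lower with RNY1-/- ProteinFx (-1.12, edgeR adjusted p = 0.0332), a call lost in 9 of 17 alternatives, among them those without PBS replicate 1, 2 or 4 or RNY1-/- ProteinFx replicate 1, 3 or 4. L3mbtl2 was at -1.09 (SE 0.321, edgeR adjusted p = 0.013) and -1.11 (SE 0.33, adjusted p = 0.0145), and Ring1 at -1.14 (SE 0.323, adjusted p = 0.0104) and -1.47 (SE 0.362, adjusted p = 0.00535). With length and GC trends removed these 4 values were -0.76, -0.79, -0.69 and -1, none past the limit. L3mbtl2 also fell short without PBS replicate 1 or 2, at -0.90 and -0.89 for RNY1-/- EVFx and -0.95 and -0.93 for RNY1+/+ ProteinFx, as did Ring1 in RNY1-/- EVFx without PBS replicate 2 (-0.97).

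Genes that MYC activates were called in both directions, except with RNY1+/+ ProteinFx, where all calls of the main fit were higher. Without PBS replicate 3 that comparison had 3 called higher and 4 lower. Of 50 genes listed, 46 were tested, and 3 were called higher and 2 lower with RNY1+/+ EVFx, 2 and 1 with RNY1-/- EVFx, 4 and 0 with RNY1+/+ ProteinFx, and 4 and 2 with RNY1-/- ProteinFx. Their median log2 fold change was 0.21, -0.06, -0.19 and -0.17, beside -0.03 for the median of all genes in each comparison. The called genes, 5, 3, 4 and 6 of 46, stand beside the 16.4%, 22.5%, 21.3% and 14.3% of all genes called. Without the limit on fold change, adjusted p alone took 14 genes higher and 2 lower with RNY1+/+ EVFx, 11 and 10 with RNY1-/- EVFx, 9 and 12 with RNY1+/+ ProteinFx, and 6 and 11 with RNY1-/- ProteinFx, where 44.5%, 58.3%, 55.2% and 35.7% of all genes passed. The E-box CACGTG was in the promoters of 15 of the 42 listed genes that have one in the table, 35.71%.

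Mthfd2, the mitochondrial folate enzyme, rose with every fraction, from 11.9 to 15.1 CPM in PBS to 153 to 171 CPM with RNY1+/+ EVFx, 119 to 164 with RNY1-/- EVFx, 122.5 to 138 with RNY1+/+ ProteinFx and 84.6 to 104.5 CPM with RNY1-/- ProteinFx. Its log2 fold changes were 3.75 (SE 0.11), 3.54 (SE 0.133), 3.43 (SE 0.115) and 2.87 (SE 0.121), with edgeR adjusted p-values of 3.02e-09, 1.27e-08, 1.21e-09 and 8.79e-08. Slc7a5, a transporter of large neutral amino acids, rose by 2.64 with RNY1+/+ EVFx (SE 0.237, adjusted p = 5.44e-06), and by 2.09, 1.98 and 1.55 with RNY1-/- EVFx, RNY1+/+ ProteinFx and RNY1-/- ProteinFx (adjusted p 8.25e-06, 5.21e-05 and 0.00193). In these last comparisons it averaged under 10 CPM over the 8 libraries, PBS included. Its group means were 12.06, 11.82 and 9.09 CPM there and 3.29 in PBS. Ccnd2, cyclin D2, rose with both ProteinFx, by 2.08 (SE 0.145, adjusted p = 4.99e-07) and 1.66 (SE 0.138, adjusted p = 1.05e-05).

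Hexokinase 2 (Hk2) stood at the limit, at 1.001 with RNY1+/+ EVFx (SE 0.101, edgeR adjusted p = 1.31e-05) and 1.02 with RNY1+/+ ProteinFx (SE 0.126, adjusted p = 5.06e-05), and fell under it in 6 and 3 of 15 alternatives, including those without PBS replicate 3 (0.96 and 0.97), RNY1+/+ EVFx replicate 1 (0.96) or 2 (0.99), PBS replicate 4 (0.999) and RNY1+/+ ProteinFx replicate 2 (0.94). It was not called with RNY1-/- fluid, but means were close, at 84.0 CPM for EVFx and 96.1 for ProteinFx. RNY1+/+ means were 95.2 and 97.2 CPM, and the PBS mean was 53.8. Ldha, lactate dehydrogenase A, was at 1.01 with RNY1-/- ProteinFx (SE 0.127, adjusted p = 0.00021) and fell under the limit in 5 of 17, including those without PBS replicate 2 (0.98) or 4 (0.97) and RNY1-/- ProteinFx replicate 1 (0.91). Tfrc, the transferrin receptor, fell with both EVFx, by 1.44 (SE 0.107, adjusted p = 1.3e-06) and 1.07 (SE 0.116, adjusted p = 1.96e-05). Prps2, a nucleotide synthesis enzyme, fell with RNY1+/+ EVFx by 1.24 (SE 0.101, adjusted p = 2.52e-06). Its mean was 23.4 CPM there, 28.9 with RNY1-/- EVFx and 62.5 in PBS. That of Ldha was 542 CPM with RNY1-/- ProteinFx, 452 with RNY1+/+ ProteinFx and 281 in PBS. With RNY1-/- ProteinFx, Nop16 and Srm, both under 10 CPM on average, were at -1.09 and -1.004 (adjusted p 0.0224 and 0.0364), calls lost in 6 and 11 of 17 alternatives. Nop16 lost it without PBS replicate 1 or 4 or RNY1-/- ProteinFx replicate 3 or 4, and Srm without PBS replicate 1, 2 or 4 or RNY1-/- ProteinFx replicate 2, 3 or 4. Means of Nop16 and Srm were 2.91 and 3.25 CPM with RNY1-/- ProteinFx, 3.32 and 4.26 with RNY1+/+ ProteinFx, and 6.93 and 7.275 in PBS.

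**Figure D4:**
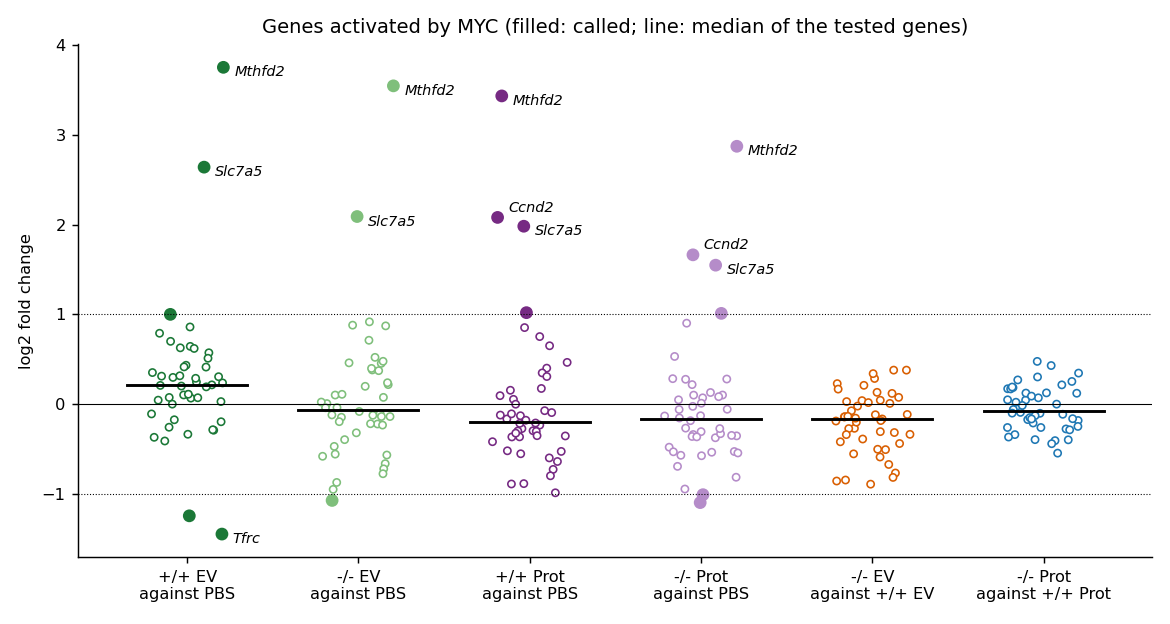
Log2 fold change (vertical axis) of the 46 tested genes that MYC is known to activate, for each of 6 comparisons (horizontal axis). Each point is a gene, filled where it met the limits of a call, dotted lines mark -1 and 1, and the thick line is the median. Most genes lie between the limits, and Mthfd2 stands highest in all 4 comparisons with PBS.

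Between genotypes, 0 of the 46 genes activated by MYC were called in either fraction by edgeR or DESeq2. At an unadjusted p under 0.05 without a limit on fold change, 6 were higher and 20 lower with RNY1-/- EVFx, where 58.4% of all genes passed, and 3 higher and 6 lower with RNY1-/- ProteinFx, where 19.3% did. The difference between the genotype effects was called for 2 of them. Eif4ebp1, which holds back cap-dependent translation, had a difference of 1.33 (SE 0.272, edgeR adjusted p = 0.00394), with -0.89 in EVFx and 0.43 in ProteinFx. Apex1, a DNA repair enzyme, had 1.29 (SE 0.245, adjusted p = 0.00315), with -0.81 and 0.48. Without RNY1-/- ProteinFx replicates 1 and 2 the value for Eif4ebp1 was 0.71, no longer past the limits.

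Of 8 genes that MYC represses, 7 were tested in the EVFx comparisons with PBS and 6 in the ProteinFx ones. With RNY1+/+ EVFx 3 were called higher and 2 lower, with RNY1-/- EVFx 2 and 1, with RNY1+/+ ProteinFx 0 and 3, and with RNY1-/- ProteinFx 0 and 2. These stand beside 16.4%, 22.5%, 21.3% and 14.3% of all genes called in either direction. Cdkn2b, the cell cycle inhibitor p15, rose with both EVFx, from 1.9 ± 0.903 CPM in PBS to 31.8 ± 6.27 and 30.9 ± 9.5 CPM (log2 fold changes 4.24 and 4.25, edgeR adjusted p 3.67e-07 and 1.55e-06). In ProteinFx it averaged 0.957 and 0.999 CPM and was not tested. Cdkn1c, the inhibitor p57, fell with both ProteinFx, from 61.0 ± 14.8 CPM to 2.18 ± 0.342 and 4.0 ± 1.84 CPM (-4.60 and -3.90, adjusted p 2.63e-08 and 5.72e-06). Its EVFx means were 67.3 ± 31.0 and 69.5 ± 26.5 CPM. Levels with EVFx and with ProteinFx were not compared by a test, the doses being unmatched.

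Gadd45b, a stress-induced gene, rose with both EVFx (1.67 and 1.33, edgeR adjusted p 4.35e-05 and 0.000188), and Cdkn1a, the inhibitor p21, rose with RNY1+/+ EVFx (1.14, SE 0.232, adjusted p = 0.00218), though by 0.94 without PBS replicate 3 and 0.96 with total counts. Gadd45a fell with RNY1+/+ EVFx and both ProteinFx (-1.56, -1.997 and -1.07, adjusted p 7.54e-06, 4.19e-06 and 0.00196). The last was -0.97 without PBS replicate 3, -0.997 without RNY1-/- ProteinFx replicate 1, -0.95 without replicate 2, -0.80 without both, and -0.96 with length and GC trends removed. Gadd45a was not called with RNY1-/- EVFx, but its mean there was 123.7 ± 16.65 CPM, close to 119.7 ± 22.65 with RNY1-/- ProteinFx. The PBS mean was 263.8 ± 50 CPM.

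Ndrg1, a gene of differentiation and hypoxia, fell with both EVFx and with RNY1+/+ ProteinFx (-2.30, -2.49 and -2.22, edgeR adjusted p 2.88e-07, 1.48e-06 and 1.8e-05), and was at -0.71 with RNY1-/- ProteinFx (adjusted p = 0.136). It was at 55.4 to 83 CPM in PBS, 12 to 13.1 with RNY1+/+ EVFx, 8.08 to 15.5 with RNY1-/- EVFx and 7.63 to 18.2 CPM with RNY1+/+ ProteinFx. With RNY1-/- ProteinFx it was at 75.2, 48.3, 19.9 and 20.2 CPM in replicates 1 to 4. The genotypes in ProteinFx differed by 1.55 (SE 0.384, edgeR adjusted p = 0.0325), and the difference of genotype effects was 1.75 (SE 0.48, adjusted p = 0.0129). The call between ProteinFx genotypes was lost with DESeq2 (adjusted p = 0.057), without any of the 4 RNY1+/+ ProteinFx libraries in turn (0.0507 to 0.142) and without RNY1-/- ProteinFx replicate 1 (0.0886) or 2 (0.0673). Without both of the latter it was 0.55 on the log2 scale, with an adjusted p of 0.257.

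Proliferation genes, of the kind seen when MYC is active, were called in the lower direction alone. Of 23 listed, 18, 18, 19 and 21 were tested with RNY1+/+ EVFx, RNY1-/- EVFx, RNY1+/+ ProteinFx and RNY1-/- ProteinFx, and 11, 9, 7 and 9 were called lower, beside 8.2%, 13.5%, 12.4% and 7.99% of all genes. None was higher by edgeR or DESeq2, and 0 at an unadjusted p under 0.05. Their median log2 fold changes were -1.30, -1.07, -0.92 and -0.94. Members that were not called included Mki67, at 0.07 with RNY1-/- EVFx, and Mcm4, at 0.25 with RNY1+/+ ProteinFx, both named after their values were seen. Mcm2, part of the replicative helicase, fell from 27.5 ± 2.28 CPM in PBS to 7.48 ± 1.89, 5.53 ± 1.1, 11.2 ± 2.73 and 11.9 ± 2.97 CPM (log2 fold changes -1.68, -2.05, -1.13 and -1.11, edgeR adjusted p 1.48e-05, 1.98e-06, 0.000221 and 0.000724). The last was -0.92 without RNY1-/- ProteinFx replicates 3 and 4. Top2a, the topoisomerase of dividing cells, fell by 1.596, 1.21 and 1.31 with RNY1+/+ EVFx, RNY1-/- EVFx and RNY1-/- ProteinFx (adjusted p 0.000388, 0.00348 and 0.00193), the second by 0.98 without PBS replicate 3. Top2a was not called with RNY1+/+ ProteinFx, but its mean there was 11.18 CPM, against 9.22 with RNY1-/- ProteinFx and 23.75 in PBS. Mcm3, another helicase subunit, fell with RNY1+/+ EVFx by 1.13 (SE 0.137, adjusted p = 5.28e-05). It was not called with RNY1-/- EVFx, but the means were close, at 8.27 CPM with RNY1+/+ EVFx and 9.3 with RNY1-/- EVFx. The PBS mean of Mcm3 was 20.67 CPM. In bulk RNA, fewer dividing cells and less RNA of these genes per cell cannot be told apart, and the same holds for every level above. Between genotypes none was called in either fraction by edgeR or DESeq2, with 1 higher and 1 lower at an unadjusted p under 0.05 in EVFx and 0 in ProteinFx.

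Markers of cells that BALF could carry were measured beside these results. Of 9 neutrophil markers, S100a8 and S100a9 made up most of the sum, which was 287 to 335.5 CPM in PBS and 144.5 to 356.5 CPM with the fractions, while Ly6g was at 0 in all groups but 1. Of 4 eosinophil markers Ccr3 held most counts, Epx was at 0 in every library, and the sum was 7.17 to 13.5 CPM in PBS, 0.801 to 2.46 with EVFx and 12.3 to 21.1 CPM with ProteinFx. The macrophage marker sum was 9351 to 14330 CPM in PBS and 8778 to 11520 CPM with the fractions. Mitochondrial transcripts took 5.58% to 7.32% of counts in PBS and 3.8% to 6.14% with the fractions. The fibroblast sum was 21.7 to 48.4 CPM in PBS and 9.96 to 37 CPM with the fractions, and the lung epithelium sum 8.88 to 36 and 5.44 to 31.2 CPM. Their part in the network's levels was not tested.

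The genes whose log2 CPM over the 20 libraries was most like that of Myc, among 7550 genes at 10 CPM or more, were Tmem135 (Pearson r 0.934), Atad2 (0.919), ENSMUSG00000138136, which has no symbol (0.918), Nap1l1 (0.913) and Gnl3 (0.904). Atad2 is a chromatin ATPase, Nap1l1 a histone chaperone and Gnl3 a nucleolar GTPase. The genes most like Mxd1 were Acp2 (0.974), Rsad2 (0.962), Igsf6 (0.962), Slco3a1 (0.959) and Cxcl10 (0.957). Acp2 is a lysosomal phosphatase, Rsad2 an antiviral enzyme induced by interferon and Cxcl10 an interferon-induced chemokine. These points share treatments in groups of 4, and r is given as a description of these libraries.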

How the data were processed

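RNA of 20 macrophage libraries was sequenced from 3′ ends with molecular identifiers. Per the study's methods and the submitters' processing notes, reads were filtered (fastp 0.24.0), aligned (STAR 2.7.11, GRCm39), deduplicated by identifier and counted by strand on exons and 3′ UTRs (featureCounts of Subread 2.1.1), with multi-mapped reads shared out. The authors deposited expected counts without normalization and CPM, the count over the library's total, which was checked on the values. Fractional counts, 23.6% to 26.3% of detected genes, were rounded. Rows without a symbol took at most 0.841% of counts and stayed in.

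Each comparison used the 8 libraries of 2 groups, and the difference of genotype effects the 16 treated ones. Genes passed filterByExpr and a mean of 3 CPM, and TMM factors went into the quasi-likelihood test of edgeR 4.0.16 (R 4.3.3), with Benjamini-Hochberg adjustment over all genes tested. Calls need an adjusted p under 0.05 and a log2 fold change beyond 1. SE was taken as the log2 fold change divided by the root of the F statistic. The scripts were tested on simulated data. Alternatives were DESeq2 1.42.0, total counts, other filters, no fold limit, all 20 libraries in 1 fit, a replicate block, removal of length and GC trends (GENCODE, GRCm38) and leaving out libraries. Python 3.11.15 drew the figures.

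The members and lists were chosen with earlier results of these data known. Named beyond the members were paralogues, Txnip, Arrdc4, up to 3 called genes a direction, list and comparison with at least 10 CPM on average, and the 5 genes most like Myc and Mxd1. Kat2a, L3mbtl2, Ring1, Zbtb17, Nop16, Srm and Slc7a5 outside RNY1+/+ EVFx fall outside this and were chosen after their values were seen. Replicate numbers come from the labels, which do not say what they share. No main fit paired libraries by number, and the replicate block was an alternative only. In RNY1-/- EVFx against PBS, deviations of same-numbered libraries had r of 0.139 to 0.377, and differently numbered ones reached 0.281. In RNY1-/- ProteinFx against PBS the same-numbered r was 0.018 to 0.633. In every other comparison the lowest same-numbered r was under 0.018. The list of corepressors is not reported here.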

Additional observations from a re-analysis of the deposited data

Results flagged for a closer look

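In PBS, Mga stood at 65.2 CPM in replicate 3 against 40.7 to 42.7 in the other libraries. In RNY1-/- EVFx, Mlx stood at 9.36 CPM in replicate 3 against 11.1 to 11.3 in the others. Both were the replicate furthest from the rest of a group of 4, and 60 such groups were looked at, of which chance alone would flag about 1 in 20.

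The difference in the effect of donor genotype between ProteinFx and EVFx, by an interaction test over 16 libraries with edgeR adjusted p, was flagged for 6 genes around the network. Bin1, Eif4ebp1, Apex1 and Ndrg1 were flagged as called genes with at least 10 CPM on average, and Txnip and Arrdc4 by adjusted p alone. Of all genes tested, 7.79% were called and 33% passed by adjusted p alone. Other listed genes also passed by adjusted p alone, in both directions. The doses of these fractions were unmatched, and the part of dose cannot be told apart. The difference on the log2 scale was 1.197 for Bin1 (adjusted p = 0.00196), 1.33 for Eif4ebp1 (0.00394), 1.29 for Apex1 (0.00315), 1.75 for Ndrg1 (0.0129), 0.62 for Txnip (0.00897) and 0.48 for Arrdc4 (0.0228). Txnip and Arrdc4 were under the limit on fold change and so were not called. Without RNY1-/- ProteinFx replicates 1 and 2, a choice made after seeing the data, Apex1 kept its call, Bin1 fell under the fold limit, and the adjusted p of Eif4ebp1, Ndrg1, Txnip and Arrdc4 was 0.0627, 0.199, 0.069 and 0.125, with log2 values of 0.96 for Bin1, 0.71 for Eif4ebp1, 0.76 for Ndrg1, 0.48 for Txnip and 0.46 for Arrdc4. Bin1 was also 0.76, under the fold limit, with length and GC trends removed.

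Among genes under 10 CPM on average, chosen after their values were seen, the same difference was 1.72 for Kat2a (edgeR adjusted p = 0.00425), 1.35 for L3mbtl2 (0.0178) and 1.11 for Ring1 (0.0437), and none of the 3 calls held without RNY1-/- ProteinFx replicates 1 and 2, at 1.07, 0.79 and 1.01 (adjusted p 0.144, 0.34 and 0.23). L3mbtl2 also lost it without RNY1-/- ProteinFx replicate 1 (adjusted p = 0.059). Ring1 lost it in 11 settings in all, among them DESeq2, RNY1-/- EVFx without replicate 2, 3 or 4 and RNY1+/+ ProteinFx without replicate 1, 2 or 4.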

How the results depend on the processing

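Without the limit on fold change, the members called rose to 5 with RNY1+/+ EVFx, 4 with RNY1-/- ProteinFx, 4 between EVFx genotypes and 5 for the difference of genotype effects. The genes activated by MYC rose to 16, 21, 21 and 17 against PBS in the order of the text, 22 between EVFx genotypes and 1 between ProteinFx genotypes. In RNY1-/- EVFx against PBS they numbered 6 with total counts and 5 with length and GC trends removed. Leaving out 1 library gave 2 to 3 members called in each comparison with PBS and between ProteinFx genotypes, 0 between EVFx genotypes and 2 to 4 for the difference of effects. It gave 4 to 5, 3 to 5, 3 to 7 and 4 to 7 genes activated by MYC against PBS and 0 between genotypes, and 5 with RNY1-/- EVFx and 7 with RNY1+/+ ProteinFx came without PBS replicate 3. Without RNY1-/- ProteinFx replicates 1 and 2, a choice made after the data were seen, 1 member, Mxd1, was called between ProteinFx genotypes. The cause of these changes was not tested. No called member changed sign. Txnip between EVFx genotypes, not called, turned from 0.05 to -0.02 with total counts.

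With the replicate block, the members called were 3, 3, 3 and 2 against PBS, 2 between ProteinFx genotypes, 0 between EVFx genotypes and 3 for the difference of effects, as without it, and the genes activated by MYC were 5, 3, 4 and 6 against PBS and 0 between genotypes. Among named genes the block ended the interaction call of Ring1 (adjusted p = 0.0509). Over all genes, calls between EVFx genotypes numbered 243, against 91 with length and GC trends removed, 367 with filterByExpr alone and 631 without a filter, and for the difference of effects 814 against 420 and, without a filter, 1401. Without a filter they were 3009 against 1775, 3798 against 2416 and 3498 against 2313 in the first 3 comparisons with PBS, and 324 against 191 between ProteinFx genotypes. The share of calls that were higher went with total counts from 50.1% to 37.6%, 40% to 24.6% and 42% to 29.5% in those 3, from 36.1% to 50.5% between ProteinFx genotypes and from 68.4% to 87.9% for the difference of effects. With length and GC trends removed it went from 44.1% to 56.2% in RNY1-/- ProteinFx against PBS, from 16% to 50.5% between EVFx genotypes and from 68.4% to 50.7% for the difference. Total counts moved the median of all genes to -0.21, -0.27 and -0.20 from -0.03 in the first 3 comparisons with PBS and from 0 to 0.17 for the difference of effects. Of 45 levels, 4 moved by over 1 SD with TMM scaling. Mxd4 at 2.5 CPM and Mxd3 near 1 CPM are limited by depth.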
